A study of Rattus norvegicus with 90 samples.

Results

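The transcript levels of rat primary hepatocytes exposed for 24 h to a high dose (0.125 mM) of thioacetamide-S-oxide were compared with those of hepatocytes exposed for the same time to a low dose (0.025 mM). The comparison used the 10 libraries whose labels give this cell type, this duration and one of these doses, 5 per dose, of the 90 libraries of the series. The high-dose libraries were MS-116 to MS-120 and the low-dose libraries MS-111 to MS-115. Cells from Sprague-Dawley rats had been bought cryopreserved, plated on collagen and kept in maintenance medium before exposure, and every culture in the comparison received the toxicant. Vehicle cultures were not used, so that each value below states how the doses differed from each other and not how either differed from unexposed cells. The study also exposed renal proximal tubular epithelial cells and cardiomyocytes, and its aim was to relate responses of cells in culture to early organ injury in the animal.

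Thioacetamide is a liver toxicant that does little harm until it is oxidized. Cytochrome P450 and flavin-containing monooxygenases convert it first to thioacetamide-S-oxide and then to a reactive S,S-dioxide that binds liver proteins and lipids. Hepatocytes, the main metabolic cells of the liver, carry these enzymes, so that cultures given the S-oxide enter this path after its first step. The comparison of the doses asks which transcripts depend on the amount of this metabolite.

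Every library table lists 65166 targets, of which 40071 are Ensembl transcripts and 25095 are genomic intervals without a gene. The estimated counts on transcripts ranged from 24858766 to 29480101 per library at the low dose and from 20906871 to 37281804 at the high dose, and the intervals took between 5.68% and 9.13% of the counts. Levels are given as CPM, the share of a library's transcript counts after TMM scaling, and fold changes are high dose over low dose on the log2 scale. The reference gene table did not pair the transcript identifiers with genes: 0 matched among its 47357 genes. Transcripts are therefore described by identifier, level and length, their genes and positions were not analysed here, and the label of hepatocyte could not be checked against marker genes. In RNA from whole cultures, fewer cells of a type cannot be told apart from less RNA per cell.

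One library stood apart from the others. High-dose library MS-120 gave 12.1% of its counts to its 10 most abundant transcripts, against 8.82% to 9.33% in the other high-dose libraries and 8.75% to 9.44% in the low-dose libraries. Its median Spearman correlation with its own group was 0.970, against 0.989 to 0.990 for the other 4 high-dose libraries. The difference between a transcript's length and its effective length, which grows with the length of the sequenced fragments, was 145.88 bases in MS-120, 164.33 to 170.32 bases in the other high-dose libraries and 168.22 to 172.76 bases in the low-dose libraries. Over 6 such library measures, none passed a difference between the doses at an adjusted p of 0.05: the smallest p was 0.0397 for this length difference (adjusted 0.238, two-sided exact permutation test, n = 5 per dose, smallest p allowed 0.00794). The labels name no batch. The tables of the high-dose libraries follow another numbering than those of the low-dose libraries, and a difference in handling between the groups cannot be told apart from dose.

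The first principal component of the log2 CPM (32.6% of the variance) placed all 5 high-dose libraries on one side, between -66.1 and -25.6, and all 5 low-dose libraries on the other, between 23.8 and 41.9. The second component (19.1%) mainly separated MS-120, at -70.0, from the rest, between -19.4 and 32.4. Without MS-120 the first component held 36.3% of the variance and separated the doses again. The biological coefficient of variation, edgeR's measure of the spread between replicates, was 0.147 over the low-dose libraries, 0.229 over the high-dose libraries and 0.134 over the high-dose libraries without MS-120. The main counts, the named transcripts and the classes are therefore also given without that library.

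**Figure D1:**
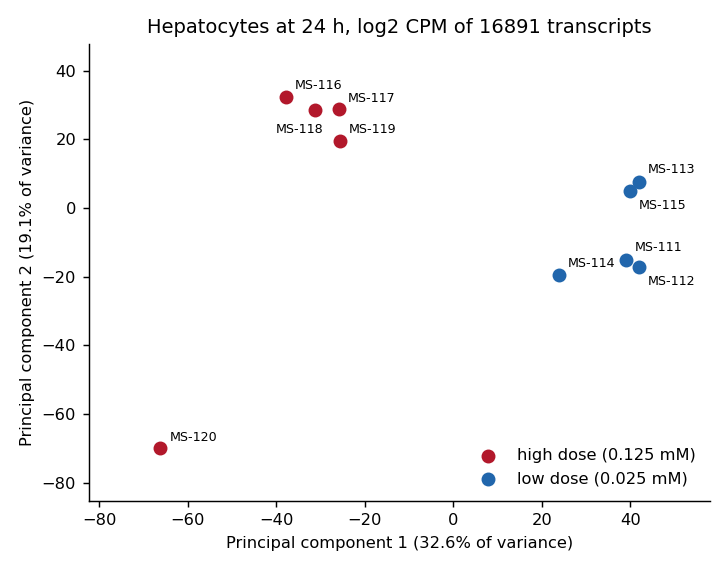
The 10 hepatocyte libraries at 24 h, plotted by their first and second principal components (arbitrary units) of log2 CPM over 16891 transcripts, with red points for the high dose and blue points for the low dose. The doses lie apart along the horizontal axis, and MS-120 lies alone at the bottom left, at -66.1 and -70.0.

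Of the 16891 transcripts that passed the filter on low counts, 1111 were higher at the high dose (6.58% of those tested) and 1409 were lower (8.34%). Such a differentially expressed transcript (DEG) had a Benjamini-Hochberg adjusted p of at most 0.05 in edgeR's quasi-likelihood test and a fold of 1.51 or more in either direction. Together the DEGs were 14.9% of the transcripts tested, and 55.9% of them were lower at the high dose. Without MS-120, 1080 transcripts were higher and 1432 lower, and these included 84.1% of the higher and 87.6% of the lower DEGs of all 10 libraries. MS-120 held the highest level of the high-dose group in 43.5% of the higher DEGs, against 34.3% of all transcripts tested, and the lowest level in 36.5% of the lower DEGs, against 34.2%.

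Most differences that passed the test were small. With no threshold on size, 6849 transcripts (40.5% of those tested) had an adjusted p of at most 0.05 in edgeR, and 4329 of these (63.2%) lay below the fold of 1.51. The median fold change of the higher DEGs was 0.87 (quartiles 0.70 and 1.19) and that of the lower DEGs was -0.85 (quartiles -1.12 and -0.69), while the median over all transcripts tested was -0.0025. A fold of 2 or more was reached by 400 higher (2.37% of the transcripts tested) and 465 lower DEGs (2.75%). A fold of 4 or more was reached by 82 higher (0.485%) and 35 lower DEGs (0.207%). In all, 11 DEGs had at most 3 counts in every library of one dose, so that the size of their fitted folds is uncertain. Most of the very large folds belonged to rare transcripts: at a mean of at least 3 on the log2 CPM scale, 9 higher and 11 lower DEGs reached a fold of 4.

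**Figure D2:**
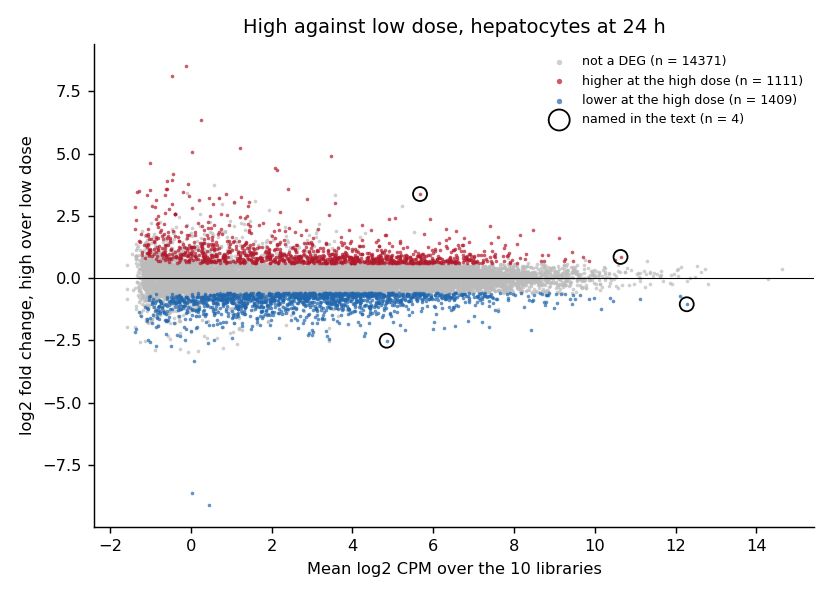
Fitted log2 fold change, high over low dose, of each of the 16891 transcripts tested (vertical axis) against its mean log2 CPM over the 10 libraries (horizontal axis), with the 1111 higher DEGs in red, the 1409 lower DEGs in blue and the 4 transcripts named in the text circled. The folds spread widely at low levels and narrow toward the abundant transcripts, where both colours continue.

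The levels of individual libraries show the same comparison without a model. In 5313 of the transcripts tested (31.5%), all 5 high-dose libraries lay on one side of all 5 low-dose libraries, and 2496 of these (14.8% of those tested) were higher and 2817 (16.7%) lower at the high dose. Among the DEGs the groups did not overlap in 897 of the 1111 higher (80.7%) and in 1190 of the 1409 lower (84.5%). The same libraries chose the DEGs, which favours such shares. Of all transcripts whose groups did not overlap, 39.3% were DEGs. Without MS-120 the share of all transcripts whose groups did not overlap was 38.8%. Leaving out any library can only keep or raise this share, and this was done for MS-120 alone.

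Of the RNA counted, the lower DEGs made up a larger part than the higher DEGs at the low dose and a smaller part at the high dose. The transcripts higher at the high dose summed to 26744 CPM at the low dose (2.67% of the scaled total) and to 49201 CPM at the high dose (4.92%). The transcripts lower at the high dose summed to 74611 CPM at the low dose (7.46%) and to 41006 CPM at the high dose (4.10%). These sums describe the sets that the test chose.

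The share of transcripts called varied with their level. Split into 5 classes of equal size by mean log2 CPM, from the least to the most abundant, 18.7%, 20.8%, 15.2%, 10.4% and 9.44% of the transcripts were DEGs. The share whose groups did not overlap ran the other way, with 14.1%, 24.8%, 36.0%, 40.5% and 41.9%, and the median size of the fold change fell from 0.44 in the least abundant to 0.20 in the most abundant class. The abundant transcripts thus separated the doses more often in the libraries but less often by a fold of 1.51. Lower DEGs outnumbered higher DEGs mainly in classes 2 and 3, where 12.8% and 9.41% of transcripts were lower against 8.05% and 5.77% higher. In the most abundant class the shares were 4.77% higher and 4.68% lower, and among the 1000 most abundant transcripts 38 were higher and 49 lower. Without MS-120 the called shares of the 5 classes were 18.2%, 21.3%, 14.7%, 10.4% and 8.92%.

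Transcript length moved with the share that was lower at the high dose. In 5 classes of equal size by length, from 49 to 1184 bases up to 3654 to 25658 bases, 5.15%, 8.70%, 8.88%, 9.12% and 9.86% of the transcripts were lower DEGs. The corresponding shares of higher DEGs were 6.33%, 6.22%, 6.81%, 7.16% and 6.36%. The shortest class was thus the only one in which the higher DEGs outnumbered the lower. Without MS-120 the lower shares were 5.44%, 8.10%, 9.30%, 8.83% and 10.2%. The part of the fragment length in this order was not tested. Kallisto divides a read that fits several transcripts, so that an estimated count need not be whole. Among the 6633 transcripts whose counts were whole numbers in all 10 libraries (to within 1e-06), 15.9% were DEGs, against 14.3% of the other 10258.

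The transcript with the largest increase in fold, among DEGs whose log2 CPM averaged 3 or more (60.7% of the transcripts tested reach it) and with groups that did not overlap, was ENSRNOT00000026303 (3130 bases). Its level was 10.3, 10.3, 7.06, 7.83 and 9.28 CPM in low-dose libraries MS-111 to MS-115, and 97.2, 76.9, 90.1, 55.3 and 147.03 CPM in high-dose libraries MS-116 to MS-120. The lowest high-dose library was thus above every low-dose library by a wide margin, and the high-dose libraries also differed among themselves, with MS-119 lowest and MS-120 highest. The mean rose from 8.96 ± 1.48 to 93.3 ± 34.01 CPM (SD, n = 5), and the log2 fold change was 3.38 (SE 0.25, edgeR adjusted p = 4.06e-06), or 10.4-fold higher. Leaving out MS-120 gave 3.16. All of its counts were whole numbers, and so hold no sign of reads divided with another target. Among all higher DEGs it was the 21st by fold, behind transcripts that were rarer or whose groups overlapped.

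The largest increase in CPM was that of ENSRNOT00000085692 (2545 bases), whose level was high in both groups. The low-dose libraries MS-111 to MS-115 gave 1117, 1107, 1140, 1140 and 1179 CPM, and the high-dose libraries MS-116 to MS-120 gave 2263, 2090, 2189, 1951 and 1759 CPM. The low-dose values were almost level, and MS-120 was the lowest of the high-dose libraries while still above all low-dose libraries. The mean rose from 1137 ± 27.5 to 2051 ± 200 CPM (SD, n = 5), and the log2 fold change was 0.85 (SE 0.07, edgeR adjusted p = 5.46e-06). This is 1.80-fold, and leaving out MS-120 gave 0.90 on the log2 scale. Its counts were whole numbers too.

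ENSRNOT00000074209 (4517 bases) showed the largest decrease in fold by the same rule. Its level was 51.9, 51.9, 49.6, 40.2 and 51.1 CPM in MS-111 to MS-115, and 6.27, 8.54, 7.03, 11.4 and 9.48 CPM in MS-116 to MS-120. The groups lay far apart, MS-114 stood below the other low-dose libraries, and MS-120 was within the range of the other high-dose libraries. The mean fell from 48.9 ± 4.95 to 8.54 ± 2.02 CPM (SD, n = 5), and the log2 fold change was -2.51 (SE 0.15, edgeR adjusted p = 1.48e-06), or 5.70-fold lower. Leaving out MS-120 gave -2.54. Its estimated counts were not whole, so that reads were shared with at least one other target and the division between them is uncertain.

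The largest decrease in CPM was that of ENSRNOT00000057585 (8136 bases). The low-dose libraries MS-111 to MS-115 gave 7826, 7395, 6674, 5984 and 5564 CPM, and the high-dose libraries MS-116 to MS-120 gave 3103, 2944, 2763, 3464 and 3893 CPM. Every high-dose library lay below every low-dose library, and MS-120 was the closest of them to the low-dose group. The mean fell from 6689 ± 943 to 3233 ± 450 CPM (SD, n = 5), and the log2 fold change was -1.05 (SE 0.11, edgeR adjusted p = 4.48e-05), or 2.07-fold lower. Leaving out MS-120 gave -1.12. Its counts were not whole numbers, with the uncertainty given above.

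Levels of different transcripts can be compared only per length, for which the deposited TPM were used. At the low dose ENSRNOT00000057585 stood at 999 ± 121.9 TPM and ENSRNOT00000085692 at 571 ± 24.8 TPM (SD, n = 5). At the high dose the order was reversed, with 470 ± 56.2 TPM for the former and 1004 ± 131.6 TPM for the latter. In each of the 10 libraries the transcript with the higher group mean was also the higher of the pair: at the low dose the ranges were 849 to 1126 and 539 to 603 TPM, and at the high dose 405 to 537 and 782 to 1122 TPM. The other named transcripts were much rarer, with ENSRNOT00000026303 at 3.60 ± 0.55 and 36.0 ± 11.0 TPM and ENSRNOT00000074209 at 13.4 ± 1.31 and 2.28 ± 0.59 TPM at the low and high dose.

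**Figure D3:**
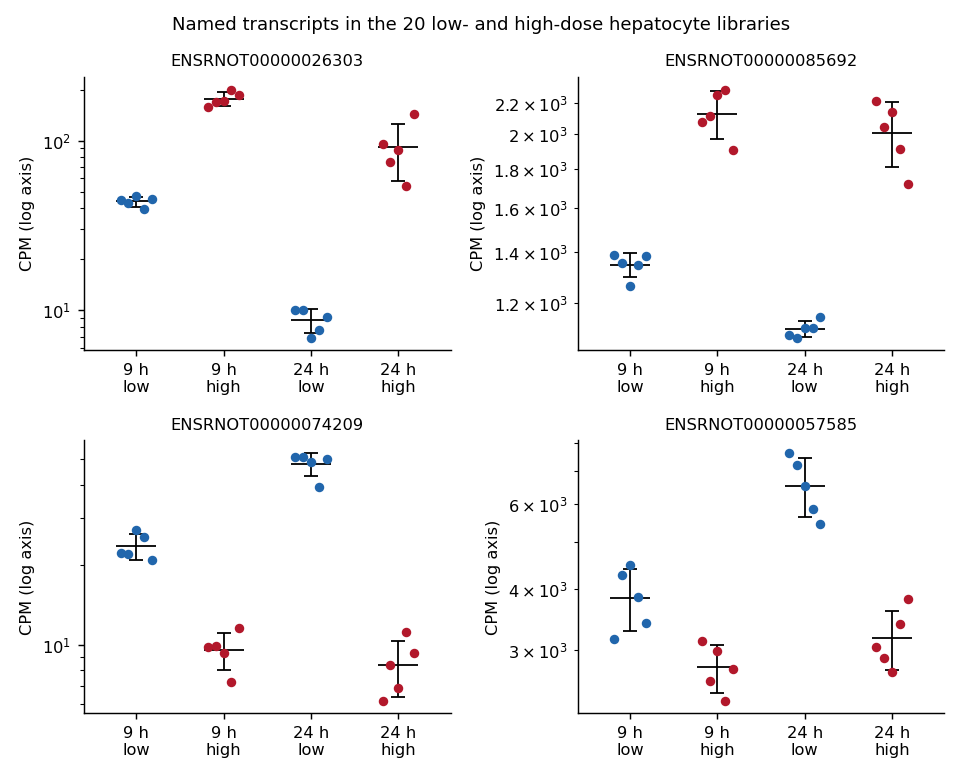
CPM (log axis) of the 4 named transcripts in the 20 low-dose (blue) and high-dose (red) hepatocyte libraries at 9 and 24 h, scaled over all 20 libraries, with 1 point per library, a long bar at the mean and error bars of 1 SD (n = 5). The transcripts were chosen for doses that do not overlap at 24 h, and in each of the 4 the low-dose mean moved farther between the times on the log axis than the high-dose mean.

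The same doses were also measured at 9 h, in 10 other libraries that the comparison above did not use. At 9 h, 621 of 16636 transcripts were higher at the high dose (3.73%) and 635 were lower (3.82%), together 7.55% of those tested, against 1111 and 1409 at 24 h. Under the deposited TPM, 31.3% of the 9 h DEGs were higher, against 49.4% from the counts. The median size of the fold change over all transcripts tested was 0.20 at 9 h and 0.28 at 24 h. The biological coefficient of variation over both doses was 0.147 at 9 h and 0.193 at 24 h. A larger spread between replicates also raises such a median, and its part was not tested. Of the 24 h higher DEGs, 1056 were also tested at 9 h: 337 of them (31.9%) were higher DEGs there, against 3.59% of the 16228 transcripts tested at both times. Their direction was more widely shared than their call, with 985 (93.3%) above 0 at 9 h against 48.3% of all transcripts, and their median fold change was 0.45 at 9 h and 0.85 at 24 h. The 24 h values are the ones that chose these transcripts.

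The lower DEGs were mostly below 0 at 9 h. Of the 1350 that were tested at 9 h, 333 (24.7%) were lower DEGs there, against 3.89% of all transcripts, and 1209 (89.6%) were below 0, against 51.7%. Their median fold change was -0.40 at 9 h and -0.84 at 24 h. Followed the other way, from the DEGs chosen at 9 h, the medians were smaller at 24 h: 0.87 at 9 h and 0.79 at 24 h for the 583 higher DEGs tested at both times, and -0.78 and -0.66 for the 632 lower ones. Each set thus had its larger median at the time that chose it. The DEGs shared by both times (670, or 669 without MS-120) were 54.3% of the 9 h higher DEGs and 52.4% of the 9 h lower DEGs, where 6.58% and 8.34% of all transcripts tested at 24 h were called higher and lower. These shares count 38 higher and 3 lower DEGs of 9 h that were not tested at 24 h. The remaining 9 h DEGs mostly kept their sign at 24 h without passing the thresholds: this held for 195 of 244 higher and 266 of 299 lower ones that were tested and called in neither direction at 24 h. A further 2 higher DEGs of 9 h were lower DEGs at 24 h, and they are not named here, as no gene could be matched. In 226 of the 337 shared higher DEGs and in 216 of the 333 shared lower DEGs the fold change was the larger at 24 h.

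**Figure D4:**
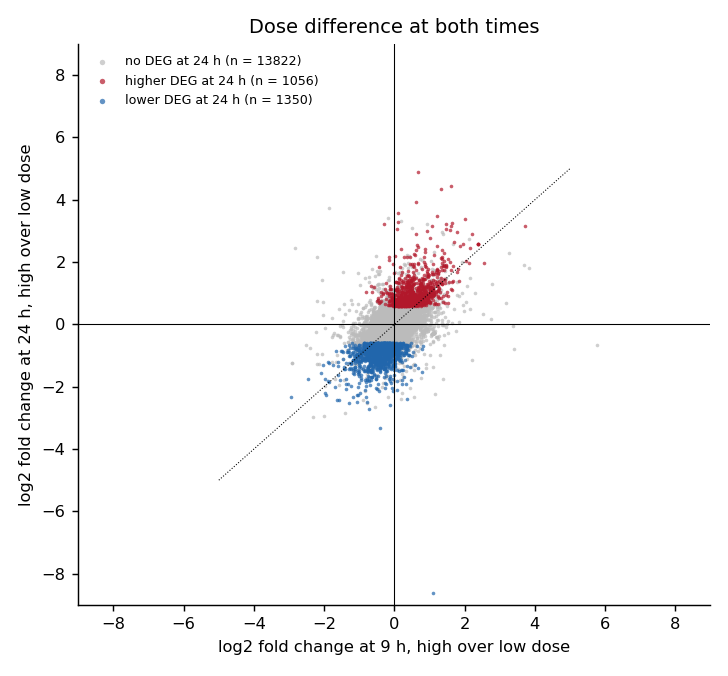
Log2 fold change, high over low dose, at 24 h (vertical axis) against that at 9 h (horizontal axis) for the transcripts tested at both times, with the 24 h higher DEGs in red (n = 1056), the 24 h lower DEGs in blue (n = 1350), all others in grey and a dotted line where both values are equal. Most red points lie right of 0 (985) and most blue points left of 0 (1209), and many of both lie farther from 0 at 24 h than at 9 h.

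The difference between the times was tested itself, as a dose-by-time term over all 20 libraries. In 712 of 17710 transcripts (4.02%) the dose difference changed between 9 and 24 h by edgeR's test at the same thresholds, upward in 289 (1.63%) and downward in 423 (2.39%). Under the deposited TPM, 54.0% of such transcripts went upward, against 40.6% from the counts, and with no threshold on size 52.7% of the 2262 called from the counts went upward. The prevailing direction thus depended on these choices. Without MS-120 the counts gave 726. Of the 289, 61.2% were higher DEGs at 24 h, against 6.58% of all transcripts tested at 24 h, and of the 423, 79.2% (335) were lower DEGs at 24 h, against 8.34%. The 24 h libraries enter both tests, so that such shares are favoured by the choice. The median dose difference of the 289 was -0.03 at 9 h and 0.82 at 24 h, and that of the 423 was -0.01 at 9 h and -0.96 at 24 h. Of these 24 h DEGs, 26 of the higher and 27 of the lower were called in the same direction at 9 h too, where 3.59% and 3.89% of all transcripts were called higher and lower. In the opposite direction, 50 of the 289 were lower DEGs at 9 h and 30 of the 423 were higher DEGs at 9 h. A further 62 of the 289 and 60 of the 423 were DEGs at neither time.

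Of the named transcripts, ENSRNOT00000026303 and ENSRNOT00000074209 passed this test at both thresholds, and ENSRNOT00000057585 passed on adjusted p alone. All named transcripts were chosen for their difference at 24 h in libraries that this test also uses. That choice favours a larger difference at 24 h than at 9 h. For ENSRNOT00000026303 the dose difference was 2.02 at 9 h (SE 0.07, edgeR adjusted p = 1.86e-08) and grew by 1.37 (SE 0.25, adjusted p = 0.00130). ENSRNOT00000074209 went from -1.29 at 9 h to -2.51, a further -1.22 (SE 0.19, edgeR adjusted p = 0.00038). ENSRNOT00000057585 went from -0.47 at 9 h to -1.05, a further -0.57 (SE 0.16, edgeR adjusted p = 0.0249). The size of this change lay below the threshold of 0.59 on the log2 scale. The fourth, ENSRNOT00000085692, had a dose difference of 0.66 at 9 h, and its later gain of 0.20 did not pass (SE 0.08, edgeR adjusted p = 0.137).

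Scaled over all 20 libraries, the levels show in which dose group each transcript moved between the times. ENSRNOT00000026303 stood at 43.8 ± 2.88 CPM at 9 h and 8.76 ± 1.44 CPM at 24 h at the low dose, and at 176.8 ± 16.4 and 91.4 ± 33.3 CPM at the high dose (SD, n = 5). It was thus lower at 24 h in both groups, and by the larger ratio at the low dose. ENSRNOT00000085692 stood at 1349 ± 50.2 and 1111 ± 27.7 CPM at the low dose and at 2128 ± 153.9 and 2008 ± 195 CPM at the high dose. ENSRNOT00000074209 stood at 23.4 ± 2.58 and 47.8 ± 4.82 CPM at the low dose and at 9.56 ± 1.55 and 8.36 ± 1.98 CPM at the high dose. ENSRNOT00000057585 stood at 3834 ± 558 and 6536 ± 915 CPM at the low dose and at 2759 ± 311 and 3166 ± 443 CPM at the high dose. Both transcripts with a lower level at the high dose were therefore higher at 24 h than at 9 h in the low-dose cultures, with no overlap between the times, while their high-dose levels at the times overlapped.

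The same order held over the DEGs as sets, as a description with no test, since the 24 h libraries also chose them. From 9 to 24 h the median log2 change of the 1111 higher DEGs was -0.36 in low-dose and 0.06 in high-dose cultures, against 0.01 and 0.04 over all transcripts tested. At the low dose 873 of them (78.6%) were lower at 24 h than at 9 h, against 48.5% of all transcripts tested. At the high dose 501 (45.1%) were lower, close to the 46.3% of all transcripts tested, and 610 higher. The median change of the 1409 lower DEGs was 0.43 in low-dose and -0.02 in high-dose cultures, and 1169 of them (83.0%) were higher at 24 h at the low dose, against 51.5% of all transcripts tested. At the high dose 720 of them (51.1%) were lower at 24 h, against 46.3%. The change in the low-dose cultures was the larger in size for 656 of the higher DEGs (59.0%) and 806 of the lower DEGs (57.2%), against 47.6% of all transcripts tested. Without MS-120 the 4 medians were -0.36, 0.02, 0.44 and -0.01. Under upper-quartile scaling they were -0.31, 0.09, 0.49 and 0.02, so that the sign of the high-dose median of the lower DEGs turned. The vehicle cultures of these times were not used, so that time in culture and time since exposure cannot be told apart.

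**Figure D5:**
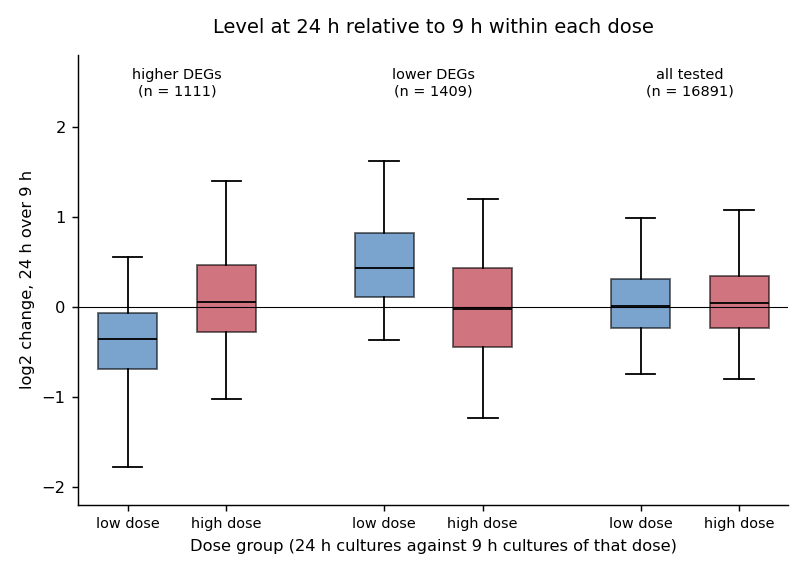
Log2 change from 9 to 24 h within each dose (vertical axis) for the 1111 higher DEGs, the 1409 lower DEGs and all 16891 transcripts tested, at the low dose (blue) and the high dose (red), with a line at the median, a box over the quartiles and whiskers from the 5th to the 95th percentile. The low-dose boxes lie below 0 for the higher DEGs and above 0 for the lower DEGs (medians -0.36 and 0.43), and the high-dose boxes straddle 0.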

How the data were processed

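The authors deposited 1 table per library with the estimated count and the TPM of each target. Reads were paired, from poly-A-enriched stranded libraries and, per the submitters' processing notes, were pseudo-aligned with kallisto 0.42.4 to the Rnor_6.0 transcriptome. The authors' own fits were not used here. Samples were grouped by their labels (cell type, dose, duration). The labels do not say that libraries of a group came from separate donors, so that p-values measure the spread between these libraries, which may be technical.

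Estimated counts of Ensembl transcripts were rounded to whole numbers and tested with edgeR 4.0.16 in R 4.3.3, by its quasi-likelihood F test after filterByExpr and TMM, over the 2 groups of a comparison, with Benjamini-Hochberg adjustment over all transcripts tested. The thresholds, an adjusted p no higher than 0.05 and a fold of 0.41 or more on the natural-log scale (1.51-fold), follow the study, which used Sleuth. A standard error (SE) is the absolute log2 fold change over the root of the F statistic. DESeq2 1.42.0, limma 3.58.1 on log2(CPM + 0.5) and on log2(TPM + 1) of the deposited TPM, other scaling and filters, and leaving out each library were alternatives. Fold changes from log2(TPM + 1) understate the change of low transcripts. The functions were tested on simulated data.

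Named transcripts were DEGs whose log2 CPM averaged 3 or more and with groups that did not overlap: the one with the largest fold and the one with the largest difference in CPM in each direction. Classes of transcripts, thresholds and the comparison itself were chosen with earlier results of these data known. Gene lists and cell markers had been listed but were not scored, as the gene table (GRCr8) has no Ensembl identifiers. At 20906871 counts or more per library, counting error is small for the named transcripts.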

Additional observations from a re-analysis of the deposited data

Results flagged for a closer look

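Among the 5 high-dose libraries at 24 h, MS-120 lay farther from the others than Dixon's 95% limit allows in 5 measures. These were the share of counts on its 10 most abundant transcripts (12.1%), the share on its 100 most abundant transcripts (29.3%, others 25.6% to 26.4%), the length difference (145.88 bases), the median Spearman correlation with its own group (0.970) and that with the low-dose group (0.957). These measures are not independent of each other. Low-dose library MS-113 stood apart by its 22598 transcripts detected, and MS-114 by its 40.2 CPM of ENSRNOT00000074209. In all, 32 sets of 5 values were examined and 7 held a library apart, where chance would give 1.6.

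The dose difference itself differed between 9 and 24 h, by the dose-by-time test of edgeR, in 712 transcripts. Of the named transcripts among the 712, it differed by 1.37 for ENSRNOT00000026303 and by -1.22 for ENSRNOT00000074209 on the log2 scale. For ENSRNOT00000057585 it differed by -0.57 (edgeR adjusted p = 0.0249). That size lay below the threshold of 0.59 on the log2 scale, so that this transcript was flagged on adjusted p alone. These 3 were chosen for their difference at 24 h in libraries that the test also uses.

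Genomic intervals, which enter no test of the report, took a median of 7.07% of the estimated counts over the 10 libraries, from 5.68% to 9.13%. Their origin was not tested.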

How the results depend on the processing

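No paired analysis was made, as the labels record no pairing of libraries between the groups. Counts below are given in all, then higher, then lower at the high dose. Without a threshold on fold, the DEGs at 24 h were 6849 (3298 and 3551), those at 9 h 5694 (2784 and 2910), and those of the dose-by-time test 2262 (1191 upward and 1071 downward). With a fold of at least 2, they were 865 (400 and 465), 395 (61.8% higher) and 260 (100 and 160). The DEGs shared by both times numbered 670 (53.3% of the 9 h DEGs), 3608 without a threshold (63.4%) and 46.6% of the 9 h DEGs at a fold of 2, where ENSRNOT00000085692 (0.85) no longer passed. With limma on log2(TPM + 1), 1588 transcripts were called at 24 h (607 higher), 773 at 9 h (242 higher), 400 at both, and the dose-by-time test called 233 downward. The mean absolute log2 fold change at 24 h was 0.40, and 0.28 from the deposited TPM. Transcripts with whole-number counts alone gave 1101 DEGs at 24 h (494 and 607), as fewer were tested. With every transcript of at least 1 count included, 18.8% had groups that did not overlap. DESeq2 gave 2528 DEGs at 24 h.

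Leaving out each library in turn gave 2302 to 2643 DEGs at 24 h (1037 to 1201 higher, 1259 to 1458 lower), 1097 to 1279 at 9 h (555 to 640 and 542 to 653), 627 to 843 for dose by time (241 to 328 and 378 to 515), 640 to 689 shared (leaving out 24 h libraries alone), and a mean absolute log2 fold change of 0.40 to 0.42. Without MS-120, 38.8% of transcripts had groups that did not overlap. Weights for each library, the alternatives for shared DEGs and upper-quartile scaling for changes over time were chosen after seeing the data. So were the values without MS-120 for classes, library measures, changes over time and the share without overlap. With those left-out fits included, 110 values recomputed for the counts at 24 h, the totals at 9 h and for dose by time, the share without overlap and the mean fold change stayed within 1.5 times of the main value or within its spread, and 18 moved farther. The median fold change over all transcripts lay between -0.040 and 0.016. The cause of these shifts was not tested.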
